A study of Mus musculus with 12 samples.

Results

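The regions described here are SOX2-bound sites that lay in gene deserts, long stretches of the genome without a protein-coding gene. They were taken from the list of SOX2 regions called in asynchronous E14 cells, a line of mouse embryonic stem cells, after entries with the same coordinates had been merged. A region was kept when its midpoint was more than 200 kb from the span of the nearest protein-coding gene. Of 10351 regions, 792 met this rule (7.65%, exact 95% interval 7.15 to 8.18%). The study profiled SOX2 by chromatin immunoprecipitation and sequencing (ChIP-seq) in asynchronous cells and in mitotic cells. There were 3 ChIP and 3 input libraries for each condition. Both conditions were grown with serum, leukemia inhibitory factor and the inhibitors CHIR99021 and PD184352, which act on GSK3 and MEK. Mitotic cells had been arrested overnight with nocodazole, a drug that blocks the spindle, and sorted for the mitotic histone mark H3S10p, whereas the labels give no arrest for asynchronous cells. Each condition is represented by 1 list called on pooled replicates, so no value below has a replicate error, and the sequencing depth is unknown. Intervals cover counting error only and treat neighbouring regions as independent. All coordinates are on mm10.

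SOX2 is an HMG-box transcription factor that, with POU5F1 and other factors, holds embryonic stem cells in the pluripotent state. Many of its sites lie far from promoters, and distal sites can act as enhancers of genes at a great distance. Gene deserts are often bordered by genes of development or of the nervous system, and many hold genes for long non-coding RNAs (lncRNAs), transcripts that encode no protein. The target gene of a desert site cannot be read from its position, and flanking genes are named here only to say where a desert is.

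A few desert regions overlapped the RefSeq promoter window of a lncRNA, 300 bases at its annotated start, though not always the start itself. For these windows the sequence is known (GRCm38.p6, the assembly of mm10). The window of Celrr, in the desert between the homeobox gene En1 and Insig2, is chr1:121087155-121087454 (plus strand), and all 300 bases lay within the SOX2 region 121087123 to 121087579. The window of 1190028D05Rik, between Tenm3 and Aga, is chr8:52356361-52356660 (plus strand), and all 300 bases lay within the region 52356230 to 52356765. That of C330004P14Rik, between Nmbr and Cited2, is chr10:15791527-15791826 (plus strand), with bases 1 to 231 in the region 15791436 to 15791757. That of D230030E09Rik, between Sp4 and Sp8, is chr12:118530144-118530443 (minus strand), with bases 132 to 300 in the region 118529939 to 118530312. They are shown 5′ to 3′ because they are the desert-bound sequences themselves, and capitals mark a SOX word inside the bound part.
Celrr: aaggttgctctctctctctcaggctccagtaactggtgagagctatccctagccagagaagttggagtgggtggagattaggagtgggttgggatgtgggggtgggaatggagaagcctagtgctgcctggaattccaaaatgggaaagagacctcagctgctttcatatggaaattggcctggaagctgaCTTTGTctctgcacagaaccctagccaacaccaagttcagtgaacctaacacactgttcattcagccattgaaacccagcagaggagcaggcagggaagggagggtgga
1190028D05Rik: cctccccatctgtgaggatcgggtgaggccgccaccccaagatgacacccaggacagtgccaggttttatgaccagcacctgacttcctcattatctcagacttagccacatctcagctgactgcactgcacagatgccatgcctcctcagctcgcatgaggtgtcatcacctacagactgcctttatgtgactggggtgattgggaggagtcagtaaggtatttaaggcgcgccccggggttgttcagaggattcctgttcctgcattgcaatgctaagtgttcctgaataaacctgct
C330004P14Rik: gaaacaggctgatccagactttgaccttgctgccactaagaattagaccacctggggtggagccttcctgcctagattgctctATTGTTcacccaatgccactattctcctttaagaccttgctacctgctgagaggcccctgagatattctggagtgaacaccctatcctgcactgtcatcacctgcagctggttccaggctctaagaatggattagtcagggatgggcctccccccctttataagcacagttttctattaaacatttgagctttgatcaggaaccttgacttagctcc
D230030E09Rik: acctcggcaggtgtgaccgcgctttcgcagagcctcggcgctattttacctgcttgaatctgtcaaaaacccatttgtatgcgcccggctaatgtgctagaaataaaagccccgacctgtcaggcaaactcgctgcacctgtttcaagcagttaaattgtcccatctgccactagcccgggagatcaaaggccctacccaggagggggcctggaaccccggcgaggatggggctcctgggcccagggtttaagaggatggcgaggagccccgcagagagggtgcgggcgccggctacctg
Short forms of the SOX motif were searched on both strands. The first form was CATTGT, another form used was CTTTGT, and the last one was ATTGTT, which can overlap the first. The octamer ATGCAAAT, to which POU factors bind, was searched in the same way. Celrr held CTTTGT and C330004P14Rik held ATTGTT, each at 1 place. None of the 4 words was found in the bound part of the other two windows. Windows of 3 more lncRNAs, Gm33782, Gm40748 and Gm30214, overlapped a desert region by 166, 18 and 57 bases and held none there. Thus 2 of 7 windows held a word in the bound part, and Gm40748 held CATTGT outside it. Among all 32851 RefSeq promoter windows of this length, 12.6% held CATTGT, 18.7% CTTTGT, 10.7% ATTGTT and 1.74% the octamer. These shares are for single words over whole windows, so the 2 of 7 cannot be set against them. Such matches describe the letters of a window and do not show where SOX2 was bound.

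The density of SOX2 regions was lower the further the sequence was from protein-coding genes, down to a level that was similar in all bands beyond 500 kb. There were 4.81 regions per Mb inside genes (exact Poisson 95% interval 4.68 to 4.95) and 4.92 within 50 kb outside them (4.75 to 5.09). Between 100 and 200 kb the density was 2.80 per Mb (2.59 to 3.02). Inside the deserts it was 2.15 per Mb at 200 to 300 kb (1.91 to 2.40, 301 regions) and 1.77 at 300 to 500 kb (1.56 to 1.98, 281 regions). At 500 to 750 kb it was 0.913 (0.736 to 1.12, 92 regions). From there the intervals overlapped throughout, with 0.965 at 750 to 1000 kb, 0.968 at 1000 to 1500 kb and 0.931 (0.532 to 1.51, 16 regions) further out. On autosomes alone the same bands gave 2.52, 2.04, 1.03, 1.00, 1.01 and 0.937 per Mb. Lengths were not corrected for assembly gaps or for repeats in which reads cannot be placed.

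**Figure D1:**
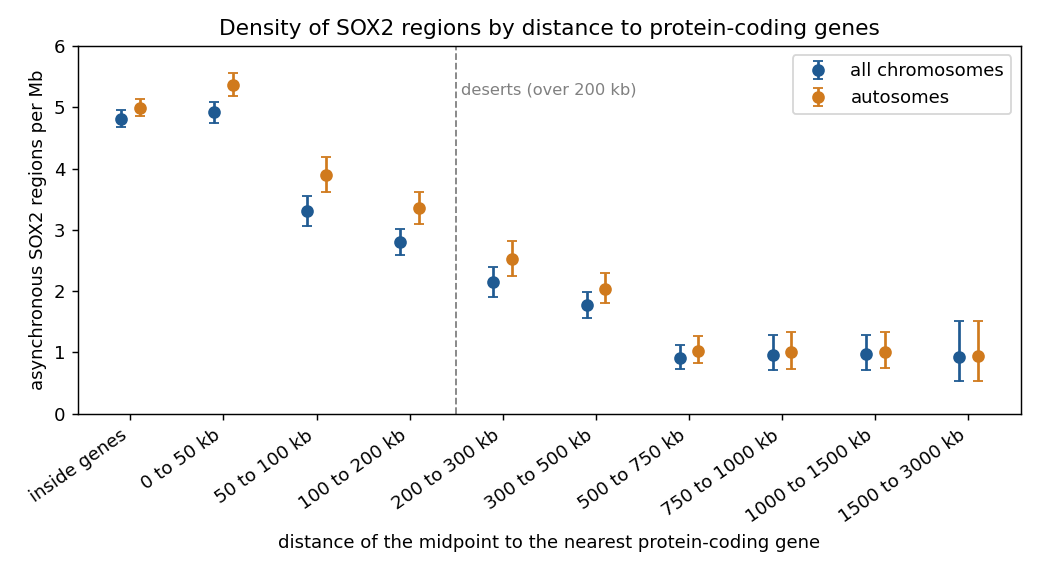
Asynchronous SOX2 regions per Mb (vertical axis) by distance of the midpoint to the nearest protein-coding gene (horizontal axis, bands in kb), for all chromosomes and for autosomes; points are densities and bars exact Poisson 95% intervals. Right of the dashed line, the deserts held 2.15 regions per Mb at 200 to 300 kb and between 0.913 and 0.968 in the bands beyond 500 kb.

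The distance of the 792 regions to the nearest protein-coding gene had a median of 349 kb (interquartile range 263 to 520.0 kb). There were 205 regions (25.9%) further than 500 kb and 65 (8.21%) further than 1000 kb. The most distant lay 1972 kb from Celf4, an RNA-binding protein gene, at chromosome 18, 27726426 to 27726826. Next were regions 1927 kb from the synaptic adhesion gene Lrrc4c (chromosome 2, 99558226 to 99558560) and 1861 kb from Cntnap5b (chromosome 1, 102351101 to 102351289). Others lay 1795 kb from Pik3c3, a lipid kinase gene (chromosome 18, 28470564 to 28470750), and 1783 kb from the protocadherin gene Pcdh9 (chromosome 14, 91230884 to 91231202). At the threshold, the nearest regions left out lay 199.98 kb from Gm826 and 199.97 kb from Ttc29, and the nearest kept lay just past 200 kb from Pkia, 200.1 kb from Cyria and 200.2 kb from Sec16b.

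Desert regions were about as wide as the others. Their median width was 299 bp (interquartile range 233 to 389 bp), against 288 bp (226 to 381 bp) for the other 9559 regions, and no test was made of this difference. Of the desert regions, 53.2% were wider than the median of the whole list (289 bp), against 49.7% of the others. Widths say nothing of how strongly a site was bound. The widest, 949 bp, lay 236 kb from Plekhb2 at chromosome 1, 35115308 to 35116256. It was followed by regions of 911 bp near Gm36722 (chromosome 7, 36352951 to 36353861), 879 bp near the adhesion receptor gene Adgrl2 (chromosome 3, 149219440 to 149220318) and 873 bp near Gm44812. Regions of 833 bp and 831 bp had as nearest genes Galc, a lysosomal enzyme, and Wscd1. A region of 799 bp lay 524 kb from Zic1, a zinc finger gene of the neural plate, at chromosome 9, 90833727 to 90834525. One of 768 bp lay between Irx3 and Irx5, homeobox genes of neural and limb patterning, at chromosome 8, 92133931 to 92134698. Regions of 733 bp and 693 bp had Ofcc1 and Tenm4, a teneurin gene, as nearest genes.

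Between pairs of neighbouring protein-coding genes there were 867 deserts with at least some sequence further than 200 kb from both, 518 Mb in all. This sequence is called the desert interior here. It made up 19.5% of the length between the outermost genes of the chromosomes and held 787 regions, or 1.52 per Mb (1.42 to 1.63), against 4.47 per Mb elsewhere. The remaining 5 regions lay between a chromosome's start and its first gene. In the margins of the same deserts, up to 200 kb from their genes, the density was 2.87 per Mb. A region was present in the interior of 362 deserts (41.8%, exact 95% interval 38.4 to 45.1%). Of these, 165 held 1 region, 97 held 2 and 100 held 3 or more. Those 100 deserts held 54.0% of all desert regions and 26.4% of the interior length.

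Longer deserts more often held a region but were not denser. Of the 217 deserts with the longest interiors, 68.7% held a region and the density was 1.16 per Mb. For the 217 shortest these values were 11.1% and 2.08 per Mb. In between they were 37.8% with 2.96 per Mb for the shorter and 49.5% with 1.91 per Mb for the longer deserts. Among the 324 deserts with an interior of at least 500 kb the median density was 0.968 per Mb (interquartile range 0 to 2.18), and 112 had no region. On the X chromosome 71 deserts held 7 regions, or 0.199 per Mb, against 1.71 per Mb on autosomes. Regions were sparse on all of the X, with 1.03 per Mb over the whole chromosome, against 2.74 to 5.53 on the autosomes. E14 is a male line with 1 X per cell, and densities were not corrected for copy number. On the Y chromosome 74 deserts with 25.8 Mb of interior held none, and they count among the 867. Their boundaries are uncertain, since genes of unplaced scaffolds listed there could not be told apart.

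The 12 deserts with most regions held 95 of the 792 desert regions on 3.58% of the interior length. The last place was a tie of 4 deserts with 6 regions, and the densest of these, between Dok5 and Cbln4, was taken. The others bordered Pou3f3, Tenm4 and Cntnap5a. The desert with the highest count, 11 regions at 11.1 per Mb, lay on chromosome 5 between Gm4868 and Tmem132c, a transmembrane protein gene (125849962 to 127241825). Its regions fell into a scattered group of 5, from 126079340 to 126630044, and a group of 6 within 50 kb of each other. The last 4 of these formed the only run of 4 desert regions spaced closer than 10 kb, at 126755126 to 126769969. The lncRNA 1700081B01Rik (126706602 to 126749766) held 2 regions of this group. In all, 13 lncRNA genes lay in this desert.

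The desert between Bcl11a, a zinc finger repressor of blood and brain development, and the ubiquitin ligase gene Fancl (chromosome 11, 24173559 to 26387083) held 10 regions at 5.51 per Mb. They were unevenly placed. The lncRNA 5730522E02Rik, 594 kb long (25616846 to 26210576), held 7 of the 10, from 25746700 to 26170926. These 7 lay 216 to 640.3 kb from Fancl and 1573 to 1997 kb from Bcl11a. When regions closer than 10 kb were counted once, this desert had the highest count, 9.

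Some of the densest deserts bordered a listed pluripotency gene. Between Cd83 and Jarid2, a Polycomb cofactor gene (chromosome 13, 43803134 to 44730773), the interior of 528 kb held 8 regions, or 15.2 per Mb, the highest density among deserts with an interior of at least 500 kb. The 200 kb margins of this desert held 8 more. Its 17 lncRNA genes included Gm33958, with 2 regions, and Gm33489 and A330076C08Rik, with 1 each. Between the Mediator gene Med13l and Tbx3, a T-box factor of naive pluripotency (chromosome 5, 118765439 to 119670533), there were 7 regions at 13.9 per Mb. The widest of them, 647 bp, lay in the lncRNA Gm30895 at 119055273 to 119055919. A shorter desert, between 1810013L24Rik and the NMDA receptor gene Grin2a (chromosome 16, 8858925 to 9567900), held 8 regions in 309 kb, or 25.9 per Mb, all from 9083573 to 9284816.

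In other deserts of the first 12, regions were spread out or gathered at 1 end. Between the adhesion receptor genes Adgrl2 and Adgrl4 (chromosome 3, 148989097 to 151437881), all 7 regions lay 231 to 495 kb from Adgrl2, in an interior of 2049 kb. The lncRNA Gm30382 (149181187 to 149445599) held 6 of them and A630039O03Rik the other. Between Auts2, a gene of neural development, and Castor2 (chromosome 5, 132543221 to 134099747), 8 regions fell into 3 near Auts2, 351 to 630.2 kb away, and 5 near Castor2, 345 to 468 kb away. Between the anion exchanger gene Slc4a3 and Epha4, an axon guidance receptor gene (chromosome 1, 75559432 to 77367181), there were 7, of which 4 lay within 438 kb of Slc4a3. The desert between the adaptor gene Dok5 and Cbln4, a synapse organiser gene (chromosome 2, 170879776 to 172036335), held 6 at 7.93 per Mb. Outside the first 12, the desert between Plpp3, a lipid phosphatase gene, and Usp24, a deubiquitinase gene (chromosome 4, 105232768 to 106315979), held 5 at 7.32 per Mb, the lowest of the 5 densest with an interior of at least 500 kb.

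The longest interiors among the first 12 had the lowest densities of that group, above the 1.52 per Mb of all deserts. Between Celf4 and Pik3c3 (chromosome 18, 25754521 to 30265614), 9 regions were spread over an interior of 4111 kb, or 2.19 per Mb, and between Cntnap5b and the cadherin gene Cdh20 (chromosome 1, 100490600 to 104768339) 7 regions gave 1.81 per Mb. In the shorter desert between Sall3, a zinc finger factor gene, and the galanin receptor gene Galr1 (chromosome 18, 80987022 to 82392495), 7 regions gave 6.96 per Mb.

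**Figure D2:**
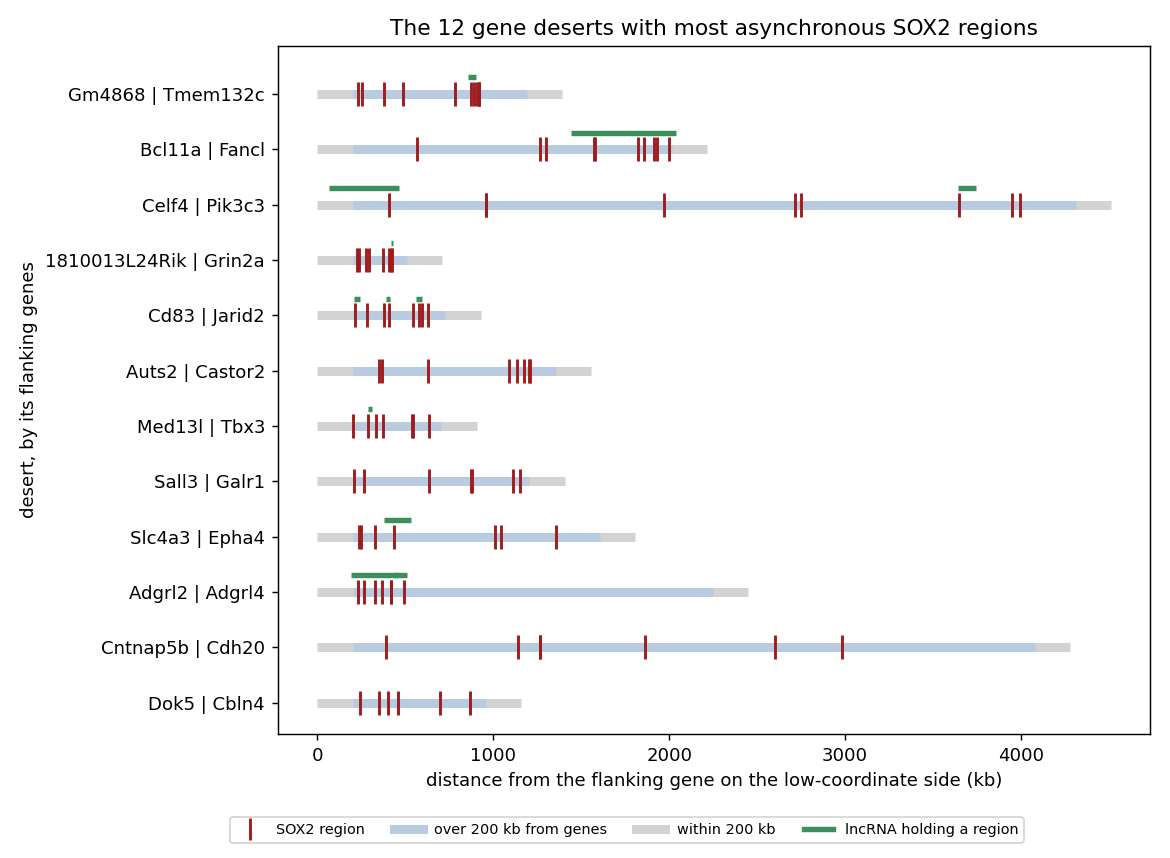
The 12 deserts with most asynchronous SOX2 regions, drawn to 1 scale as distance in kb from the flanking gene on the low-coordinate side; red ticks are regions, blue the interior further than 200 kb from genes, grey the margins, whose regions are not drawn, and green lncRNA spans that hold a region. All 7 regions between Adgrl2 and Adgrl4 lie 231 to 495 kb from Adgrl2, whereas 9 regions are spread over 4111 kb between Celf4 and Pik3c3.

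Long deserts could also be without any region. The longest interior with none, 3175 kb, lay between D3Ertd751e and the protocadherin gene Pcdh10 on chromosome 3 (41803308 to 45378397), and its margins held 2. The next were between Diaph2 and Pcdh19 on the X chromosome (2717 kb), between Trim52 and Slitrk1 on chromosome 14 (2374 kb), between Alcam and Zpld1 on chromosome 16 (2371 kb) and between Vmn2r121 and 4932411N23Rik on the X chromosome (2277 kb). The margins of these 4 held none either. All X deserts together had 0.199 regions per Mb of interior, and the whole X chromosome had 1.03 per Mb.

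Deserts that bordered a pluripotency gene held more regions for their length than deserts as a whole. Of the 12 deserts with a listed pluripotency gene at an end, 9 held a region (exact 95% interval of the share 42.8 to 94.5%), against 41.8% of all deserts, and 7 held 3 or more (58.3%, against 11.5%). Their interiors held 37 regions in 7.07 Mb, or 5.23 per Mb, with a median of 3 per desert against 0 over all. These deserts were also longer, with a median interior of 596 kb against 339 kb over all, and the shares were not corrected for length. All 12 lay on autosomes, where 49.4% of deserts held a region, a share within the interval above, and the density was 1.71 per Mb. Beside the deserts of Jarid2 and Tbx3, that of Nr5a2, an orphan nuclear receptor gene, held 5 regions, from chromosome 1, 137174123 to 137669437. That of Mycn, a Myc family gene, held 4 in only 155 kb (chromosome 12, 12580921 to 12709132). The first pair of these lay 0.933 kb apart and just past the threshold, 200.11 and 201.05 kb from Cyria. The desert between Sox2 and Atp11b held 4, of which 3 lay in the lncRNA Gm38512 (chromosome 3, 35337700 to 35405950), 361 to 413 kb from Atp11b. Fbxo15 had 3. Myc bordered deserts on both sides, with 3 regions towards A1bg and 2 towards Gsdmc, and Klf4 had 1, at chromosome 4, 56475656 to 56475921. The deserts of Klf5, Tet2 and, on its other side, Sox2 held none. The list was chosen with earlier results of these data known, so these shares are a description.

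Deserts next to adhesion and axon guidance genes were numerous, long and of low density. There were 94 of them, with a median interior of 1192 kb against 339 kb over all deserts. A region was present in 64 (68.1%, against 41.8% of all deserts), and the density was 1.13 per Mb, against 1.52 over all. Cdh2, the N-cadherin gene, bordered a desert with 5 regions, as did Cdh8, Cntn5, Ctnna2, Tenm2, Adgrl3, Pcdh9 and Pcdh17, and Tenm4 and Cntnap5a each bordered one with 6. Of 86 deserts next to a developmental transcription factor gene, 44 held a region (51.2%, exact interval 40.1 to 62.1%). This interval includes the 41.8% of all deserts and the 49.4% of autosomal deserts. Of the 86, 9 held 3 or more (10.5%, against 11.5% of all deserts). Their density was 2.13 per Mb, against 1.52 over all. Next to Bcl11a and Sall3 in this list came Pou3f3, a POU factor of neural progenitors, with 6 regions, Gata3 with 5, and Sall1 with 4 in a desert it shares with Tox3. Sox11, Nr2f1, Tcf4 and the pair Irx1 and Irx2 bordered deserts with 3 each. Next to signalling genes, 10 of 30 deserts held a region, at 1.28 per Mb. Their share was 33.3% (17.3 to 52.8%), an interval that also includes the share of all deserts. Bambi, a pseudoreceptor of TGF-beta signalling, had 4 in 249 kb and the Wnt agonist gene Rspo3 had 3. Only 1 desert bordered a listed liver gene, Apob, and it held 2. The deserts of different lists can be the same ones.

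**Figure D3:**
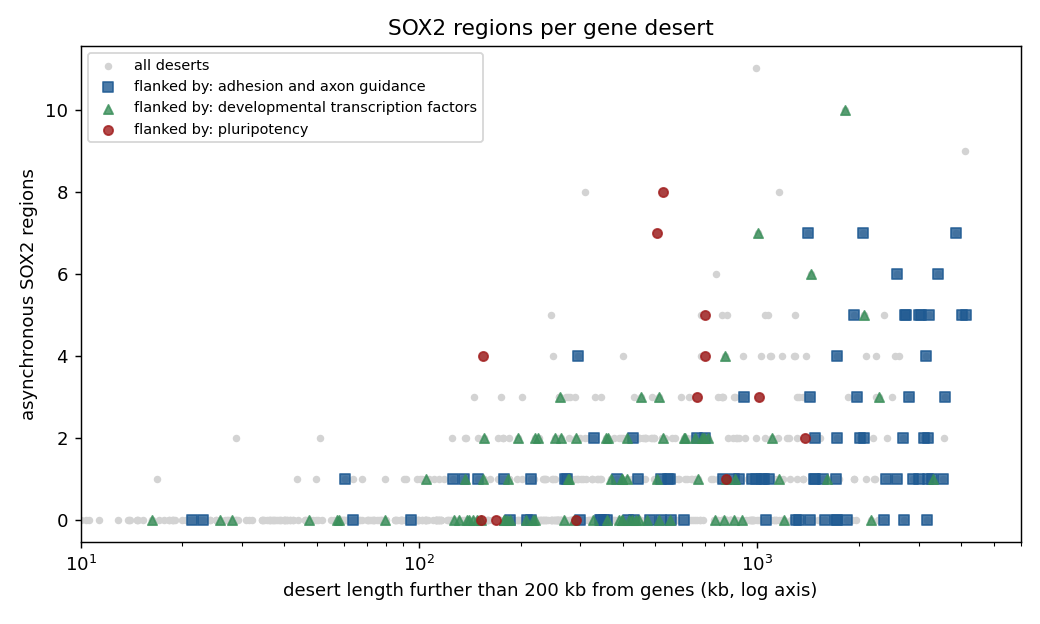
Number of asynchronous SOX2 regions (vertical axis) against the length of the desert interior (horizontal axis, kb, log scale); each point is 1 desert, coloured where a gene of 3 lists borders it, and 17 deserts with an interior under 10 kb, none of which held a region, are not drawn. Deserts next to adhesion genes reach 7 regions at interiors over 1000 kb, and the Jarid2 and Tbx3 deserts hold 8 and 7 at 528 and 505 kb.

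Desert regions lay inside annotated lncRNA genes more often than the length of these genes in the deserts alone would give. Of the 792 regions, 137 (17.3%, exact 95% interval 14.7 to 20.1%) had their midpoint in 1 or more of 113 lncRNA spans, which together with the other lncRNAs covered 8.52% of the interiors. At 200 to 300 kb from protein-coding genes the density was 4.31 regions per Mb inside lncRNA spans (exact Poisson 95% interval 3.34 to 5.48) and 1.88 outside them (1.64 to 2.13). At 300 to 500 kb it was 3.62 (2.72 to 4.72) against 1.57 (1.38 to 1.79), and beyond 500 kb 1.17 (0.671 to 1.91) against 0.923 (0.796 to 1.06). Starts of lncRNAs, known for 738 regions on the chromosomes with RefSeq promoter windows, lay within 5 kb of 39 regions (5.28%), where such sequence made up 1.86% of the interiors. Within 1 kb of a start there were 13 (1.76%, against 0.387%).

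**Figure D4:**
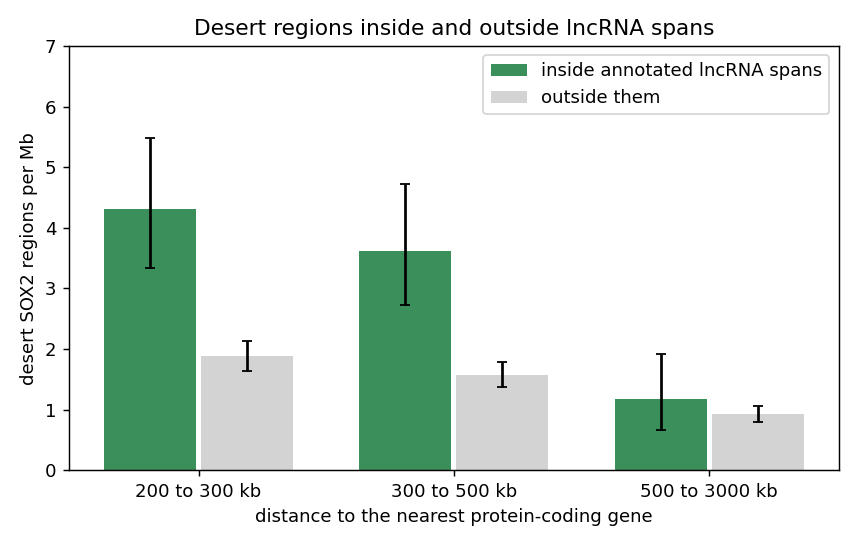
Desert SOX2 regions per Mb (vertical axis) inside (green) and outside (grey) annotated lncRNA spans, by distance to the nearest protein-coding gene; bars are densities and error bars exact Poisson 95% intervals. Inside lncRNA spans the density was 4.31 and 3.62 per Mb in the nearer bands and 1.17 beyond 500 kb, where the intervals overlap.

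Some of these lncRNAs are known in stem or neural cells. Lncenc1, named for its expression in embryonic stem cells, held 3 regions (chromosome 13, 97454877 to 97455059, 97469939 to 97470124 and 97494849 to 97495197). Its neighbour Gm5086 held 2, and these 5 were all the regions in the interior between Enc1 and Arhgef28, at 20.4 per Mb. Rmst, a lncRNA of neural progenitors whose transcript is known to bind SOX2, held 1 region, 455 bp wide, at chromosome 10, 92163132 to 92163586, near one end of its span (92081746 to 92165178). The same desert, between Tmpo and Nedd1, held a second region in Gm40738 at 92400780 to 92400992. Morrbid, a lncRNA of myeloid cells, held 2 regions, and Mir99ahg, the host of a microRNA cluster, held 1 (chromosome 16, 77400636 to 77400911). Gm30687 held 3.

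The deserts also held 147 microRNA genes, small RNAs that repress messenger RNAs through a seed at bases 2 to 8, and 53 of these lay in the interiors. None lay within 10 kb of a desert region, but the interiors held only 1.52 regions per Mb, and no expected count was computed. The nearest microRNA gene was Mir6390, 20.0 kb from a region, followed by Mir1251, 26.2 kb from the Rmst region. In the deserts with most regions, Mir6372 lay 31.5 kb from a region between Bcl11a and Fancl, and Mir6343 lay 59.1 kb from one between Slc4a3 and Epha4. Mir5127, between Sall3 and Galr1, lay 109 kb from a region, and Mir3963, between Adgrl2 and Adgrl4, 1539 kb. A pair of related clusters had 1 desert region each. Mir100, Mirlet7a-2 and Mir125b-1 lay between Ubash3b and Gm40514, 106, 100.4 and 55.2 kb from a region at chromosome 9, 41636952 to 41637389. Mir99a, Mirlet7c-1 and Mir125b-2 lay between Usp25 and Cxadr, 198, 199 and 246 kb from the region in Mir99ahg. The mature sequences are shown, from RefSeq, because the clusters share them in part, and capitals mark the seed.
miR-100-5p (chromosome 9): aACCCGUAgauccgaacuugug
miR-99a-5p (chromosome 16): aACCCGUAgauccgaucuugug
let-7c-5p (chromosome 16): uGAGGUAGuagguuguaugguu
miR-125b-5p (both): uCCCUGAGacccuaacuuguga
The first pair has the seed ACCCGUA in common, and Mir125b-1 and Mir125b-2 give the same mature 5p sequence.

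Desert regions were mostly single. When desert regions closer than 10 kb were joined, 696 of 741 groups were 1 region, 40 were pairs, 4 were triplets and 1 had 4. The triplets lay between Tmem182 and Pou3f3 (chromosome 1, 41131508 to 41140942), between 1810013L24Rik and Grin2a, between Bambi and Lyzl1 and between Dhx35 and Gm826. Thus 12.1% of desert regions were grouped, against 18.6% of the other regions among themselves. These shares were not corrected for density, which was 1.52 regions per Mb in the interiors and 4.47 elsewhere. The median distance to the nearest other SOX2 region was 111 kb (interquartile range 34.7 to 284 kb). Within 50 kb of another region were 34.1% of the desert regions.

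Of all 10351 asynchronous regions, 9 (0.0869%) overlapped a mitotic region, and none of these lay in a desert, a count too low to set desert regions apart. Of the 84 mitotic regions, 5 lay more than 200 kb from protein-coding genes (5.95%, exact 95% interval 1.96 to 13.3%), against 792 of the 10342 asynchronous regions that overlapped no mitotic region (7.66%, 7.15 to 8.19%). A difference was not detectable at these numbers (Fisher's exact test on regions, two-sided, odds ratio 0.763, p = 0.683). The asynchronous share would give 6.43 mitotic regions. The deposited names give the mitotic list a looser q-value tag, and regions are not replicates. Of these 5, the one nearest to an asynchronous region lay between Kazn and Prdm2 (chromosome 4, 142693014 to 142693120), 11.9 kb from the region at 142704773 to 142705169. Between Tmprss15 and the adhesion gene Ncam2 there were 2 mitotic regions, at chromosome 16, 79442921 to 79443025 and 80325792 to 80325901, and 1 asynchronous one, 178 kb from the second. One between Mki67, a gene of proliferating cells, and the DNA repair gene Mgmt (chromosome 7, 136178648 to 136178756) lay 363 kb from the only asynchronous region of that interior. The fifth lay before the first gene of chromosome 16, Olfr161, at 3234117 to 3234253. These 5 were 105 to 137 bp wide, where 105 bp is the smallest width of the list. None of the 12 deserts with most regions held a mitotic region, margins included, but only 10 mitotic regions lay in any of the 867 deserts with their margins.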

How the data were processed

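SOX2 ChIP-seq of E14 mouse embryonic stem cells was used as 2 deposited lists of peaks, 1 for each condition. The submitters' processing notes name the build mm10, MACS2 without a version, and Bowtie2 2.2.1. Per the names of the lists, the authors called peaks on 3 pooled replicates against input and removed blacklisted regions. Each deposited entry holds only a chromosome, a start and an end in bp (unit other), without any score, count or p-value. Starts were converted to count from 1, and 10532 asynchronous entries were merged to 10351 regions. Genes were spans of the RefSeq annotation of GRCm38.p6. After the data were seen, 108 of 21887 protein-coding genes were left out because they are listed below 3 Mb on chromosomes other than Y, where mm10 holds no sequence, which left 21779. Distances were computed with numpy 2.4.6 and tests and intervals with scipy 1.17.1, and the assignment was tested on simulated positions. Regions closer than 10 kb were joined for the count of groups.

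The members and gene lists were chosen with earlier results of these data known. Named genes flank the 12 deserts with most regions, the 5 densest with at least 500 kb of interior, the 5 longest without a region and those with a mitotic region; others are listed genes next to 3 or more regions, and genes nearest to the 10 widest and 5 most distant regions. The lncRNAs outside these deserts, the microRNAs, the genes of printed windows and listed genes next to fewer than 3 regions were chosen after their values were seen. Of 12639 lncRNAs, 9533 had a promoter window. Alternatives were the distance threshold, the edge in place of the midpoint, placeholder genes, merging, width and, for deserts, a minimum length.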

Additional observations from a re-analysis of the deposited data

How the results depend on the processing

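Of 27 recomputed values over 5 results, 16 did not move beyond 1.5 times, the interval or the test's threshold. Those for genes below 3 Mb and for autosomes were chosen after seeing the data. A threshold of 100 kb gave 1464 regions at 1.92 per Mb, and 500 kb gave 205 at 0.939 per Mb with 38.2% of deserts holding one. Regions wider than the median numbered 421, in 29.2% of deserts, with 7 in the desert between Gm4868 and Tmem132c. The share of deserts was 50.4% among interiors of at least 100 kb and 49.4% on autosomes, where the density was 1.71 per Mb. The counts fall with the threshold and width by construction, and the cause of the other changes was not tested. With regions closer than 10 kb joined, the desert with most regions was that between Bcl11a and Fancl, with 9, in place of Gm4868 and Tmem132c. This value is among the 16, since only the count was compared and not which desert held it. The odds ratio of mitotic regions ranged from 0.275 to 0.764, with Fisher's exact p from 0.254 to 1.00. No paired analysis was possible because each list pools its replicates, and for the same reason no replicate could be left out. Depth is unknown, so a desert without a region may hold sites that were not called.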

Other observations

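A pair of deserts were the loci of antigen receptor genes, whose V segments are not annotated as protein-coding. Between Gm36448 and Dad1 on chromosome 14 (52541357 to 54235484), with 118 V segments, there were 5 regions, and 1 of them, at 53039660 to 53039862, overlapped the promoter window of the lncRNA Gm30214 by 57 bases. Between Adam6a and Zfp386 on chromosome 12 (113546415 to 116047713), with 121 V segments, there were 4 regions, the widest of 512 bp at 115604093 to 115604604.

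The flanking genes of deserts with a known strand had their start on the desert side in 51.1% of 1339 cases. Next to deserts with 3 or more regions this share was 52.3% of 149. The desert region furthest from any other SOX2 region, 6257 kb, lay between Pcdh11x and Nap1l3 on the X chromosome at 121232491 to 121232735.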
